A study of Homo sapiens with 12 samples.

Results

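Accessible chromatin was examined at 9 human genes that set the balance between survival and death of a cell under stress. These were BCL2, BCL2L1, MCL1, BCL2A1, BCL2L11, BBC3, PMAIP1, BID and TNFRSF10B. An accessible region was taken as belonging to a gene when it lay within the GENCODE gene body (hg38) or the 25 kb on either side, whichever gene it may act on. By this rule the 9 genes held 209 of the 355394 regions found in the whole series. No measured value entered the rule.

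BCL2 (product BCL2), BCL2L1 (BCL-XL), MCL1 and BCL2A1 (BFL-1) encode proteins that keep mitochondria intact by holding the pore-forming proteins BAX and BAK in check. BCL2L11 (BIM), BBC3 (PUMA), PMAIP1 (NOXA) and BID encode BH3-only proteins, which bind and neutralise those survival proteins and tip the balance towards death. TNFRSF10B encodes the death receptor DR5, and BIM, PUMA, NOXA and DR5 are known targets of the ATF4 and CHOP arm of the unfolded protein response. AML cells often lean on BCL2 or MCL1 for survival.

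ATAC-seq, in which the transposase Tn5 cuts and tags open chromatin, was performed on nuclei of KO-52, an established human AML line that carries biallelic CEBPA mutations. The cells carried p42 (the full-length CEBPA isoform), p30 (the N-terminally truncated isoform common in CEBPA-mutant AML) or an empty vector (EV), and each line received DMSO or tunicamycin (Tm) at 2 µg/mL for 8 h. Tunicamycin blocks N-glycosylation and so causes stress of the endoplasmic reticulum. According to the methods, isoforms expressed long-term in KO-52 were fused to ERT2 and the cells sorted for GFP. The same methods give 4-hydroxytamoxifen to cells with ERT2 fusions, the empty vector included, to move the protein into the nucleus. The endogenous CEBPA mutations were shared by all 6 conditions.

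For each condition 1 peak list was available, called on 2 pooled libraries, so that the 12 libraries gave 6 lists with no spread between replicates. No difference between lists could therefore be tested, and intervals below cover counting only. The lists held 187704 to 254239 peaks from an estimated depth of 22.25 to 29.98 M (megatags), with p42 in DMSO the deepest and EV in DMSO the shallowest. The estimated depth was lower after tunicamycin in p42 (29.98 to 25.44 M) and p30 (26.53 to 23.08 M) but higher in EV (22.25 to 25.13 M). Start-site regions were present in all 6 lists for 6 of 6 myeloid and for none of 3 erythroid marker genes, but also for 3 of 3 lymphoid and 2 of 3 epithelial ones. The presence of a start-site region alone therefore did not separate cell types.

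Regions were merged from all 6 lists. A region is called gained where the line had a peak there after tunicamycin and none in DMSO, and lost in the reverse case. Absence means only that no peak passed the calling threshold. The strength of a region in a list is given as its percentile among all peaks of that list, ranked by −log10 q, and as the number of tags at its summit. In a bulk sample fewer cells with an open region and less opening per cell cannot be told apart.

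The regions at the 9 genes were present in more lists than regions in general. Of the 209, 104 (49.8%) had a peak in all 6 lists, against 32.2% of all regions and 35.4% of regions in the windows of all protein-coding genes. Regions seen in 1 list alone numbered 50 (23.9%, against 34.2% of all regions). They were also stronger, with a median percentile of 59.8 to 64.9 in the 6 lists, where the median of all regions was 50.5 to 52.1. The part of this greater strength in the wider presence was not tested. BCL2, the longest gene at 197 kb, held 54 regions, and the shorter genes held between 14 (MCL1) and 24 (BID and TNFRSF10B). Per 100 kb of window the range was narrower, from 20.1 regions at BCL2L1 to 29.5 at PMAIP1.

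Every one of the 9 genes had a region within 1 kb of an annotated start site in all 6 lists, as did 75.7% of 20025 protein-coding genes. Among the survival genes the strongest start-site region of BCL2L1 (chr20:31723252-31724125) varied least in percentile. Its percentile was 94.5 in DMSO and 97.7 after tunicamycin in p42, 95.5 and 97.1 in p30, and 96.5 and 97 in EV. The summit held 47 to 53 tags in all 6 lists, or 16.3 to 21.7 tags per 10 M.

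The start site of MCL1, which encodes a short-lived survival protein, was among the strongest regions of the p42 lists. There the region at chr1:150579125-150580211 stood at percentile 99.3 in DMSO and 98.6 after tunicamycin, with 49 and 44 tags. In p30 the percentile was 98 in DMSO and 90.9 after tunicamycin (42 and 33 tags), and in EV it was 92.1 and 91.8 (32 and 33 tags). The p30 value thus lay next to that of p42 in DMSO and next to that of EV after tunicamycin. Scaled to depth the MCL1 values were closer, between 13.1 and 17.3 tags per 10 M, and their Poisson intervals overlapped.

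The strongest start-site region of BCL2A1, the gene of the NF-κB-responsive survival protein BFL-1, lay at chr15:79970914-79971422. Its percentile was 81.4 in DMSO and 82.2 after tunicamycin in p42, 86.6 and 81.8 in p30, and 77.5 and 86.4 in EV. Its highest value was thus in p30 in DMSO and its lowest in EV in DMSO. BCL2 had its strongest start-site region at an internal start 158 kb into the gene (chr18:63161538-63162176), at percentile 91.8 and 89.3 in p42, 95.9 and 87.8 in p30, and 94.2 and 96.2 in EV. At the start of the full-length gene (chr18:63319701-63321154) the percentile was lowest in p42, at 74.1 in DMSO and 79.4 after tunicamycin, against 87.5 and 86.5 in p30 and 82 and 83.9 in EV. Both p42 values lay under the other 4, with 34 and 36 tags where the other lists had 38 to 45. A nearby BCL2 start-site region, 1.88 kb into the gene (chr18:63318099-63318393), had another order. There p42 was the highest in DMSO, at 87.1 against 79.2 in p30 and 75.2 in EV (45, 38 and 34 tags). After tunicamycin the values were 79.6 in p42, 87.5 in p30 and 78.6 in EV.

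**Figure D1:**
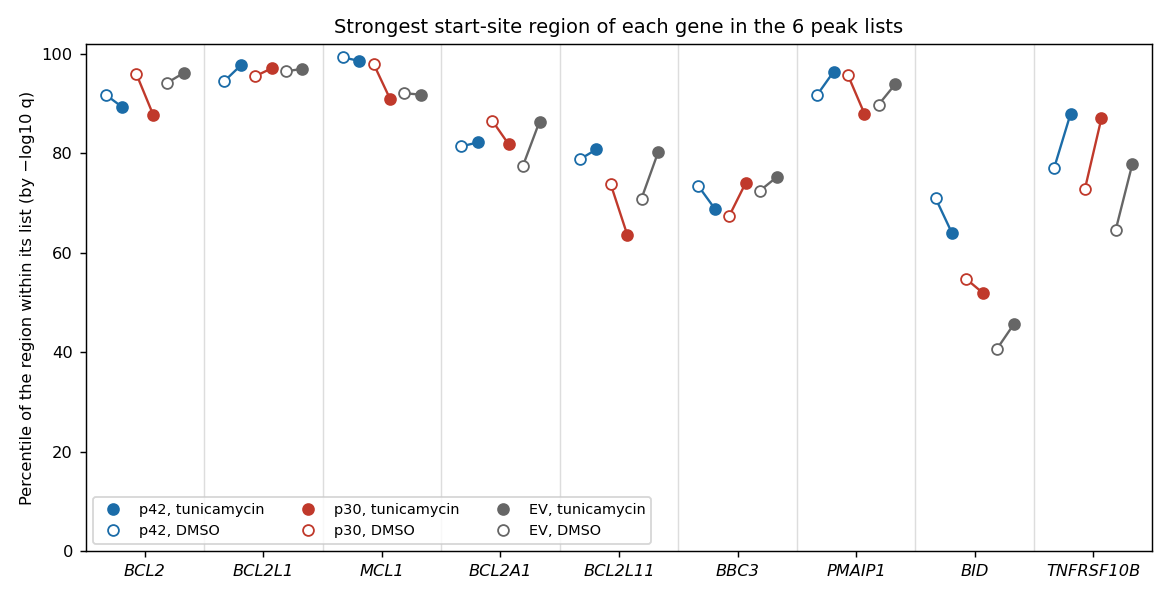
Percentile of the strongest start-site region of each of the 9 genes within its peak list (y axis, by −log10 q), for p42 (blue), p30 (red) and EV (grey) in DMSO (open circles) and after tunicamycin (filled circles). TNFRSF10B is the gene in which all 3 lines are higher after tunicamycin by 10 points or more, and for BID the order p42, p30, EV holds in both treatments. Each point is 1 pooled list, so there are no error bars.

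The start sites of the BH3-only genes were spread more widely. PMAIP1, whose product NOXA antagonises MCL1, had the strongest one (chr18:59899394-59901073), at percentile 91.7 and 96.4 in p42, 95.8 and 88 in p30, and 89.8 and 93.9 in EV, the first of each pair in DMSO. It was thus higher after tunicamycin in p42 and EV and lower in p30. BCL2L11, which encodes BIM, showed the same split at chr2:111120748-111121070, with 78.8 and 80.8 in p42, 73.8 and 63.6 in p30, and 70.9 and 80.2 in EV. Per 10 M tags PMAIP1 was at 14.3 and 18.9 in p42, 17.3 and 16.5 in p30, and 17.1 and 17.9 in EV. This BCL2L11 region was at 11 and 13.4, 10.6 and 9.53, and 11.2 and 12.7 in the same order. The Poisson intervals of each pair overlapped, so counting error alone allows no change in any line. A second BCL2L11 start-site region in the first intron (chr2:111120264-111120637) stood at 48.8 in DMSO and 72.4 after tunicamycin in p42, 46.5 and 51.9 in p30, and 26.6 and 52.4 in EV. There all 3 lines were higher after tunicamycin, p30 by the least, and the tags at the summit were 20 and 29, 18 and 18, and 14 and 20.

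BBC3, which encodes PUMA, differed by under 10 points in every line at its strongest start-site region (chr19:47225939-47226593), at percentile 73.4 and 68.8 in p42, 67.4 and 74.1 in p30, and 72.5 and 75.2 in EV. BID, whose product links death receptors to mitochondria after caspase-8 cleavage, had the weakest start-site region of the 9 genes (chr22:17773709-17774635). Its percentile was 71 in DMSO and 63.9 after tunicamycin in p42, 54.7 and 51.9 in p30, and 40.7 and 45.6 in EV. The lines were ordered p42, p30, EV in both treatments and did not overlap. Per 10 M tags the 6 BID values ran from 6.37 to 8.34, the p42 values remained the highest, and the Poisson intervals of all 6 overlapped.

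TNFRSF10B was the only one of the 9 genes whose strongest start-site region was higher by 10 points or more after tunicamycin, and it was so in every line. The region (chr8:23068999-23069414, at the start of the DR5 gene) stood at percentile 77 in DMSO and 88 after tunicamycin in p42, at 72.8 and 87.1 in p30, and at 64.6 and 77.8 in EV. The tags at its summit were 32 and 42 in p42, 29 and 42 in p30, and 25 and 36 in EV. Relative to estimated depth this was 1.55 times the DMSO level in p42 (95% interval 0.953 to 2.53), 1.66 times in p30 (1.01 to 2.77) and 1.27 times in EV (0.744 to 2.22). The intervals cover the counting of tags only, and those of p42 and EV included no change. The ratios were taken because the region was higher in these same lists. The p30 interval, which starts at 1.01, is therefore not read as a test of a rise. Ranked by fold enrichment, the EV value moved from 42.6 to 51.1, short of 10 points, while p42 (58.3 to 68.6) and p30 (51.9 to 63.7) still passed. Chromosome 8, where the gene lies, had the second highest density of regions in these cells, at 165 regions per Mb.

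Of the 104 regions present in all 6 lists at the 9 genes, 2 were higher by 10 points or more after tunicamycin in all 3 lines (1.92%), against 0.851% of all 114533 regions present throughout. One was the TNFRSF10B start site. The other lay just past the 3′ end of BCL2L11 (chr2:111168546-111168786, 49.3 kb from the start of the gene), inside the long non-coding gene MIR4435-2HG. There the percentile was 51.5 in DMSO and 62.4 after tunicamycin in p42, 62.5 and 84.1 in p30, and 41.7 and 82.9 in EV. The summit held 9 and 11 tags in p42, 12 and 20 in p30, and 8 and 19 in EV, and the tunicamycin values of p30 and EV lay above all 3 DMSO values. The ratio of tunicamycin to DMSO at equal depth was 1.44 in p42 (0.543 to 3.93), 1.92 in p30 (0.892 to 4.3) and 2.1 in EV (0.879 to 5.55), so that counting error alone allows no change in any single line. Ranked by fold enrichment or in lists of equal size, this region and its direction in the 3 lines stayed past 10 points.

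The BCL2L11 region is shown because it was one of the 2 that were higher in all 3 lines. The capitals mark an exact match to the AP-1 motif TGACTCA, found in 9.48% of all regions within 100 bp of the summit (both strands).
BCL2L11, past the 3′ end, chr2:111168627-111168725: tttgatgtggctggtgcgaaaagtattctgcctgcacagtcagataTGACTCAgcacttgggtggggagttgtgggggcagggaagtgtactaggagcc

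**Figure D2:**
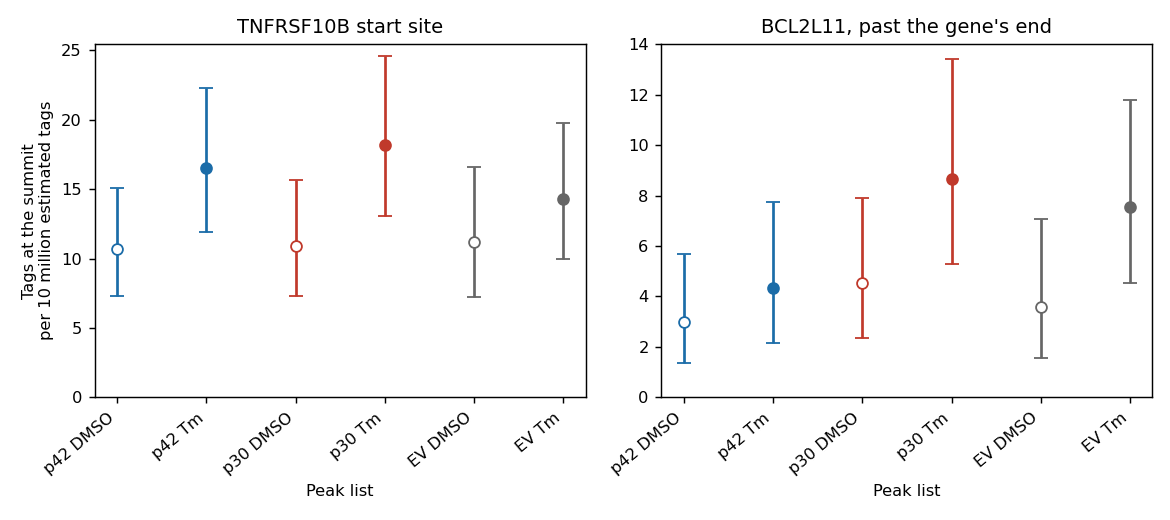
Tags at the summit per 10 M estimated tags in the 6 peak lists (y axes start at 0) for the TNFRSF10B start site (left) and the region past the end of BCL2L11 (right), with exact 95% Poisson intervals that cover counting only. Filled points are tunicamycin and open points DMSO: TNFRSF10B runs from 10.7 to 16.5 in p42, 10.9 to 18.2 in p30 and 11.2 to 14.3 in EV, and the intervals of each pair overlap.

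Lower by 10 points or more in all 3 lines were 4 of the 104 regions (3.85%, against 2.63% of all regions), each in the window of a survival gene. Of the 104, the windows of BCL2, BCL2L1, MCL1 and BCL2A1 held 23, 11, 8 and 11. So small a count shows no preference for them. In intron sequence of BCL2 (chr18:63292815-63293575) the percentile was 76.2 and 60.5 in p42, 77.9 and 59.8 in p30, and 47.5 and 8.06 in EV. The region 25.2 kb upstream of MCL1, within ENSA (chr1:150604626-150605028), stood at 72.3 and 44.1, 56.3 and 42.9, and 70 and 55.8 in the same order. The BCL2A1 region 22.8 kb from the gene start (chr15:79948008-79948591) was at 44 and 8.72, 53.1 and 42.9, and 57.1 and 8.06. The fourth, in an intron of BCL2L1 (chr20:31699238-31699437), was at 33.9 and 21.2, 65.2 and 42.9, and 76.1 and 65. These were weak regions, with 5 to 17 tags at the summit, and at equal depth every ratio of tunicamycin to DMSO had an interval that included 1. At BCL2L1 the p42 ratio was 1.01, so the lower percentile there came with the same depth-scaled tag level. With lists cut to equal size only the BCL2 region stayed lower by 10 points or more in all 3 lines. The MCL1 region then went from 52.8 to 44.5 in p30, the BCL2A1 region from 48.1 to 43.6 in p30 with no p42 peak left after tunicamycin, and the BCL2L1 region from 10.5 to 7.15 in p42.

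The shares of regions that changed presence with tunicamycin were lower at the 9 genes than over all regions. In p42, 14 of 183 regions were gained (7.65%, 95% Wilson interval 4.61 to 12.4; 11.6% of all regions) and 29 were lost (15.8%, 11.3 to 21.8; 27.5% of all regions). In p30, 17 of 156 were gained (10.9%, 6.92 to 16.8; 13.2% of all) and 17 were lost (10.9%, 6.92 to 16.8; 23.6% of all). In EV, 24 of 157 were gained (15.3%, 10.5 to 21.7; 18.8% of all) and 20 were lost (12.7%, 8.4 to 18.9; 16.3% of all). For the losses in p42 and p30 the share over all regions thus lay above the Wilson interval. For the gains in every line and the losses in EV it lay within. In the windows of all protein-coding genes the losses were 25.7% in p42 and 21.8% in p30. These intervals treat neighbouring regions of a window as independent. Regions at the 9 genes were also stronger than regions in general, and the part of strength in these shares was not tested. With lists cut to equal size the share over all regions lay above the interval for the p30 losses (7.95%, 4.6 to 13.4; 18.6% of all). For the p42 losses it no longer did (14.6%, 9.96 to 21; 19% of all), and for the p42 gains it did instead (6.37%, 3.5 to 11.3; 14.6% of all). At a −log10 q of 5 or more the intervals of the losses in p42 (3.79%, 1.63 to 8.56; 8.48% of all) and p30 (3.42%, 1.34 to 8.46; 6.61% of all) included the share over all regions. The difference in loss between p42 and EV, 15.8% against 12.7%, was within the intervals. At the 9 genes losses outnumbered gains in p42, where the estimated depth was lower after tunicamycin. Gains outnumbered losses in EV, where the depth was higher. In p30 the depth was lower, yet gains and losses were equal at 17, while over all regions more were lost (23.6%) than gained (13.2%). The part of depth in these shares was not tested.

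**Figure D3:**
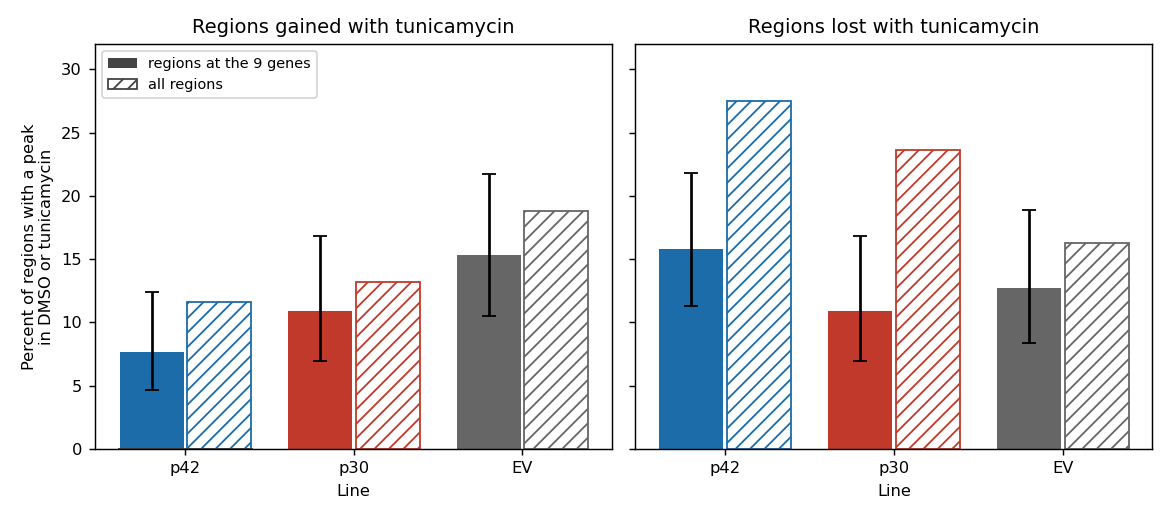
Percent of regions gained (left) or lost (right) with tunicamycin in each line, out of those with a peak in either list, for the 9 genes (solid bars, 95% Wilson intervals that cover counting only) and for all regions (hatched bars). The solid bars for losses in p42 (15.8%) and p30 (10.9%) lie under the hatched ones (27.5% and 23.6%).

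No region of the 9 genes was gained in all 3 lines (0.202% of all regions were), and 1 was lost in all 3 (0.506% of all regions). That region, in an intron of BID (chr22:17753591-17753665), was weak, at percentile 15.4 in p42, 29.8 in p30 and 34.2 in EV in DMSO, with 6 or 7 tags. The strongest gains by −log10 q in p42 were at BCL2L1 (chr20:31740400-31740490, percentile 48.3), MCL1 (chr1:150568344-150568434, 47) and BBC3 (chr19:47241235-47241359, 41.9). In p30 they were 2 intronic BCL2 regions (chr18:63308016-63308144, percentile 46.1, and chr18:63207977-63208103, 42.9) and 1 downstream of BCL2L1 (chr20:31644890-31644981, 42.9). In EV they were 2 further intronic BCL2 regions (chr18:63299982-63300199, percentile 62.5, and chr18:63197476-63197611, 47.2) and the 3′ end of TNFRSF10B (chr8:23020240-23020327, 58.5). The EV gains at percentile 62.5 and 58.5 were the strongest, and the first was already present in p42 and p30 in DMSO (15.5 and 30).

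The strongest losses were of like size. In p42 they were a region downstream of TNFRSF10B within RHOBTB2 (chr8:23014497-23014604, percentile 59.1), an intronic region of BCL2 (chr18:63170000-63170086, 51.5) and one downstream of BBC3 within SAE1 (chr19:47210467-47210526, 47.3). In p30 they were at BCL2L11 (chr2:111133754-111133850, percentile 47), downstream of BCL2 (chr18:63112734-63112995, 45.3) and upstream of BID within MICAL3 (chr22:17792419-17792523, 43.2). In EV they were 5.83 kb upstream of PMAIP1 (chr18:59894104-59894221, percentile 57.1) and 2 regions downstream of BCL2A1 (chr15:79942754-79942813 and chr15:79944764-79944901, 34.2 each). The last 2 were tied with the BID region lost in all 3 lines and with an intronic BCL2 region (chr18:63266944-63267591), also at 34.2. None of these lost regions lay at a start site of the gene it was counted for.

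Among regions present in both lists of a line, the median percentile difference between tunicamycin and DMSO was −4.56 at the 9 genes in p42 (140 regions), against −2.94 over all regions. It was −2.88 in p30 (122 regions, −1.8 over all) and 2.64 in EV (113 regions, 0.754 over all). In p42, 11 regions were higher by 10 points or more (7.86%, 13.4% of all) and 49 were lower (35%, 30.9% of all). In p30, 14 were higher (11.5%, 15.1% of all) and 33 lower (27%, 28.7% of all), and in EV 26 were higher (23%, 24.6% of all) and 12 lower (10.6%, 18.8% of all). With lists cut to equal size the medians were −1.36 in p42, −0.589 in p30 and 1.12 in EV, and those over all regions −0.43, −0.322 and −0.0794.

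Among regions in all 6 lists, the 5 with the largest tunicamycin difference in any line were at BCL2A1, PMAIP1, BCL2, BCL2L1 and BCL2L11. The BCL2A1 and BCL2L11 regions were those named above, lower in EV by 49 points and higher in EV by 41.3 points. Upstream of PMAIP1 (chr18:59877456-59877768) EV went from percentile 13.1 to 58, while p42 went from 63.8 to 49.5 and p30 from 49 to 40.3. In an intron of BCL2 (chr18:63298777-63298958) p42 went from 59.5 to 15.1, p30 from 58.9 to 59.8 and EV from 71.6 to 58.2. In an intron of BCL2L1 (chr20:31684779-31684962) EV went from 47.9 to 3.7, p42 from 69.3 to 57.6 and p30 from 13 to 8.8. At most 20 tags lay behind any of these values. Differences of like size stood in p42 at regions that 1 other list lacked, in the MCL1 window (chr1:150567393-150567575, 48.5 to 3.48) and in an intron of BCL2L1 (chr20:31706415-31706954, 65.9 to 21.2). A stronger region, in an intron of BCL2A1 (chr15:79962117-79962492, chosen after its values were seen), went from 92.2 to 72.9 in p42 (25 to 14 tags) and from 87.9 to 50.3 in p30 (21 to 9 tags). In EV the same region was at 76.4 and 79.9 (15 and 17 tags), so both CEBPA lines stood above EV in DMSO and below it after tunicamycin.

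p42 and p30 were compared within each treatment, to ask where the isoforms differ at these genes. In DMSO, 43 of 182 regions were in the p42 list and missing from p30 (23.6%, 18 to 30.3; 30.8% of all regions), and 13 had the reverse (7.14%, 4.22 to 11.8; 14.5% of all). After tunicamycin, 27 of 166 were in p42 alone of the pair (16.3%, 11.4 to 22.6; 26.1% of all) and 12 in p30 alone (7.23%, 4.18 to 12.2; 15.1% of all). Of regions in both lists in DMSO, 42 of 126 were higher in p42 by 10 points or more (33.3%, 34.4% of all) and 16 lower (12.7%, 16.8% of all). After tunicamycin 32 of 127 were higher in p42 (25.2%, 32.2% of all) and 22 lower (17.3%, 18.1% of all). The p42 lists were the deeper of each pair. With lists cut to equal size, 16.8% were in p42 alone of the pair and 8.7% in p30 alone in DMSO (20.8% and 20% of all regions). After tunicamycin the larger share was then on the p30 side, at 13% against 9.74% in p42 (20.4% and 19.2% of all).

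Peaks in both p42 lists and in no other marked 5 regions (2.39%, 4.58% of all regions), 1 each at BCL2, BCL2A1, BCL2L11, PMAIP1 and BID. The strongest were an intronic BID region (chr22:17768153-17768368), at percentile 49.2 in DMSO and 14.6 after tunicamycin, and one upstream of BCL2A1 (chr15:79987068-79987193), at 46.6 and 11.9. Those at BCL2L11 (chr2:111121972-111122250, 38.2 and 4.9), BCL2 (chr18:63099290-63099367, 4.47 and 28.3) and PMAIP1 (chr18:59877016-59877183, 5.07 and 2.77) were weak in 1 or both lists. The reverse, a peak in every list but those of p42, was seen at 1 region (0.478%, 0.802% of all regions). It lay past the end of BCL2 (chr18:63106699-63107041), at percentile 63.6 and 67 in p30 and 46.8 and 53.9 in EV, with 12 to 17 tags.

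The largest differences between p42 and p30 in DMSO, among regions in all 6 lists, were in introns of BCL2L1 and BCL2 and at a BBC3 start site, with 1 in the other direction. The BCL2L1 intron region already named stood at 69.3 in p42 and 13 in p30 (13 and 6 tags). The BCL2 intron region at chr18:63213388-63213786 was at 57.3 and 14.5 (10 and 6 tags), and that at chr18:63236421-63237297 at 84.7 and 47.7 (26 and 10 tags). A BBC3 start-site region (chr19:47231027-47231640) was at 53.2 in p42 and 12.5 in p30 (21 and 14 tags). An intronic TNFRSF10B region (chr8:23050190-23050379) was lower in p42, at 8.67 against 43.2 in p30 (5 and 8 tags). In DMSO EV lay between p42 and p30 in all 5, at 47.9, 31.1, 59.3, 26.9 and 34.2 in that order. After tunicamycin the p42 and p30 values were 57.6 and 8.8 at BCL2L1, and 48.3 and 28.9, then 68.3 and 71.5, at BCL2. They were 39 and 30.1 at BBC3 and 34 and 20.9 at TNFRSF10B. The second BCL2 region and the TNFRSF10B region thus had the reverse order after tunicamycin. The 5 were picked for a large difference between p42 and p30 in DMSO. That choice by itself makes a middle place for EV likely, so nothing is read from it.

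Other contrasts stood at regions that some lists lacked, chosen here after their values were seen. The second intronic TNFRSF10B region (chr8:23063408-23063884, 5.58 kb into the gene) was at percentile 77 in DMSO and 68.6 after tunicamycin in p42, at 14.5 and 11.9 in p30, and at 13.4 in EV with no peak after tunicamycin. In tags this was 23 and 19 in p42 and 8 in each of the 3 other lists with a peak. The exact Poisson intervals of 19 tags (11.4 to 29.7) and of 8 tags (3.45 to 15.8) overlapped. A region 14.8 kb upstream of BBC3 (chr19:47247496-47247644) was at 60.6 and 68.7 in p42, absent and at 3.16 in p30, and at 21.9 and 27.3 in EV. The region 11.9 kb downstream of the PMAIP1 start (chr18:59911678-59911976) was at 76.3 and 74.4 in p42, at 40.1 and 24.9 in p30, and absent and at 14.7 in EV. At all 3 the p42 values were higher than every other list in both treatments. Examples of the reverse, also chosen after their values were seen, stood at regions in all 6 lists. In an intron of BCL2L1 (chr20:31674135-31674414) p42 was at 40.2 and 14.8, p30 at 66.1 and 46.6, and EV at 54.6 and 63.1. Past the end of BCL2 (chr18:63111924-63112604) p42 was at 88.6 and 83.3, against 96.4 to 97.6 in the other lists. How often either pattern occurred was not counted.

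**Figure D4:**
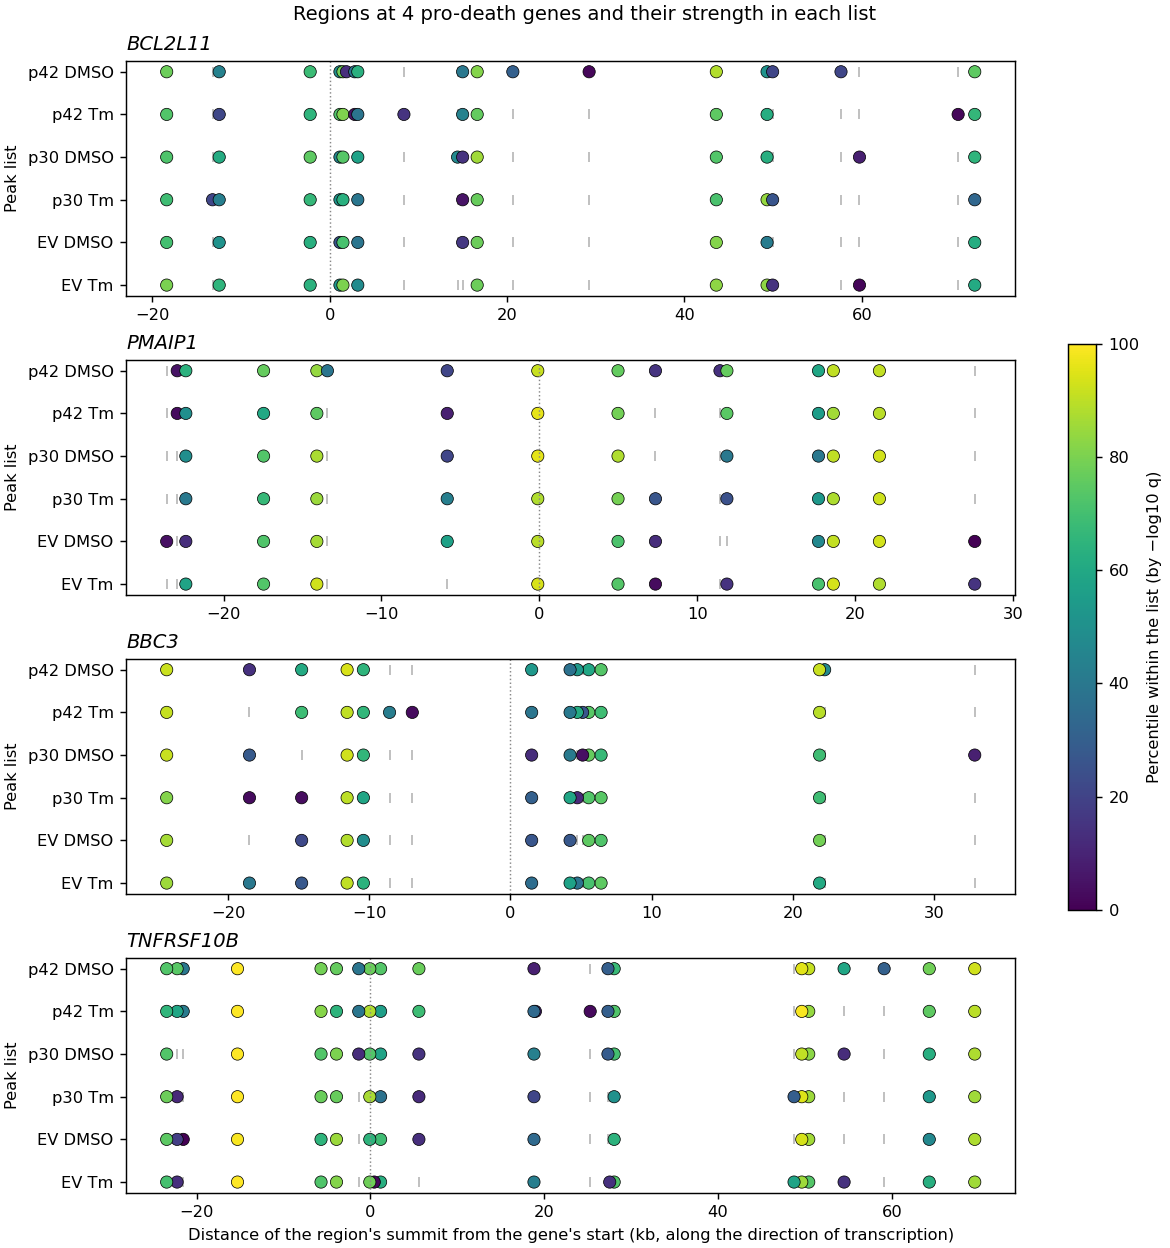
Regions at BCL2L11, PMAIP1, BBC3 and TNFRSF10B by the distance of the summit from the start of the gene (x axis, kb along the direction of transcription) in the 6 peak lists (rows). Colour gives the percentile within the list and a grey tick marks a region with no peak in that list. The PMAIP1 region at 11.9 kb and the TNFRSF10B region at 5.58 kb are brighter in both p42 rows than in the other 4.

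Short motifs were searched within 100 bp of each summit on both strands, as letters only. The ATF4 motif TGATGCAA was found in 6 of the 209 regions (2.87%, 1.25% of all regions), AP-1 in 18 (8.61%, 9.48% of all) and the C/EBP motifs TTGCGCAA, TTGCACAA and TTGTACAA in 3 (1.44%, 1.85% of all). The CRE motif TGACGTCA was found in none (0.216% of all). The composite C/EBP:AP-1 motif TGTTGCAA was found in 8 (3.83%, 1.16% of all). The counts of 6 and 8 are small, and a match describes the letters and shows no binding.

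The matches at the BCL2A1 start site and at the PMAIP1 region are printed, since one is at a start site and the other at a region where both p42 values lay above all other lists. The plus strand of hg38 is shown, the match is in capitals, and because both lie on the minus strand they read TTGCATCA.
BCL2A1, upstream of the start site, chr15:79971206-79971305: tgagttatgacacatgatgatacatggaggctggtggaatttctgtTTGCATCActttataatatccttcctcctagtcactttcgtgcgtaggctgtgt
PMAIP1, downstream of the gene, chr18:59911783-59911882: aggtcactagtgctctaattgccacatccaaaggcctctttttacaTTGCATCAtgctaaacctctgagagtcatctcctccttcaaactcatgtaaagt

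The pro-death genes BCL2L11, BBC3, PMAIP1, BID and TNFRSF10B held 22, 16, 16, 24 and 24 of the 209 regions. Of the 6 regions with an ATF4 match, 4 lay at these genes, and so small a count shows no preference for them. The 4 were the PMAIP1 region printed above, a weak BCL2L11 region seen in p42 after tunicamycin alone (percentile 1.58), a BID intron region and a region 5.69 kb upstream of TNFRSF10B. The BID region was seen in p42 in DMSO alone (15.8), and its match lay outside the called peak. The TNFRSF10B region (chr8:23074195-23075104) was at 78.7 and 81.9 in p42, 72.9 and 77 in p30, and 64.9 and 72.6 in EV, higher after tunicamycin in each line by less than 10 points. The others were the BCL2A1 start site and an intronic BCL2 region (chr18:63192577-63193516), which was lowest in p42 at 70.6 and 75.2, against 80.7 and 84.4 in p30 and 78 and 78.6 in EV.

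In DMSO, regions with the C/EBP:AP-1 match mostly had their highest percentile in p42. In DMSO the p42 percentile was above those of p30 and EV (an absent peak counted as 0) in 7 of 8, against 110 of the 188 regions of the 9 genes with a peak in any DMSO list (58.5%, 55.3% of all regions). Over all regions with this match the share was 80.5%, so the 9 genes followed a pattern of the whole series here. The second and the last BCL2 region below and the BBC3 region had a DMSO peak in p42 alone. Scoring absence as 0 fixed their outcome. The p42 list in DMSO was also the deepest (29.98 M) and the longest (254239 peaks), and the part of this in these shares was not tested. Of the 8, 3 were in introns of BCL2. The first (chr18:63253089-63253672) was at 86.4 and 83.8 in p42, 67.6 and 76.9 in p30, and 64.1 and 71.3 in EV, with 34 tags in p42 in DMSO and 18 to 29 elsewhere. The second (chr18:63178633-63178861) was at 64.9 and 44.1 in p42, absent and at 20.9 in p30, and absent from EV, and the last (chr18:63143115-63143271) had a peak in p42 in DMSO alone, at 26.4.

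At BCL2A1 the region 16.9 kb from the start (chr15:79953928-79954439) was at 67.2 and 40.5 in p42, 45.9 and 33.2 in p30, and 9.43 and 20 in EV. The BCL2A1 region 18.7 kb upstream (chr15:79989765-79989991) was at 80.8 and 77.4 in p42, 67.8 and 79.9 in p30, and 64.4 and 72.9 in EV. In p30 and EV this upstream region was higher after tunicamycin, and p42 was not. In an intron of BBC3 (chr19:47227917-47228085) p42 was at 53.7 and 61.3, and p30 and EV had no peak in DMSO but stood at 11.6 and 38.1 after tunicamycin. The region 22.2 kb upstream of TNFRSF10B (chr8:23090909-23091329) was at 74.1 and 59.2 in p42, absent and at 11.6 in p30, and at 18.2 and 13.5 in EV. The exception was a region downstream of MCL1 at the start of ADAMTSL4 (chr1:150552123-150552819), at 86 and 90.8 in p42, 86.5 and 86.7 in p30, and 94.1 and 90.9 in EV.

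**Figure D5:**
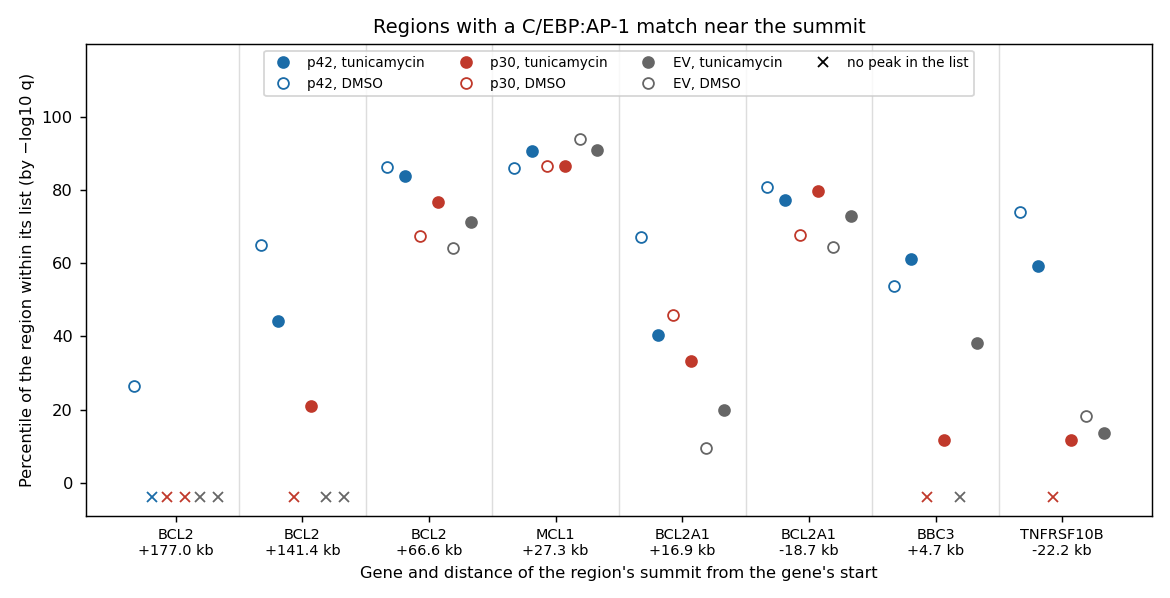
Percentile within the list (y axis, by −log10 q) of the 8 regions with a C/EBP:AP-1 match, named by gene and distance of the summit from its start, in p42 (blue), p30 (red) and EV (grey), DMSO open and tunicamycin filled. Crosses mark lists with no peak. The open blue point is the highest of the DMSO points in 7 of the 8, the exception being the region downstream of MCL1. At some of the 7 it is the only DMSO point.

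Of the 8 matches, 6 are shown, on the plus strand of hg38, with TGTTGCAA or its reverse complement TTGCAACA in capitals. At MCL1 and at the second BCL2 region matches on both strands overlap and read TGTTGCAACA.
BCL2, first intronic region, chr18:63253376-63253475: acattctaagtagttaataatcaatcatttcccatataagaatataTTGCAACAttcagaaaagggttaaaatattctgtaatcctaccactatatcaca
BCL2, second intronic region, chr18:63178614-63178715: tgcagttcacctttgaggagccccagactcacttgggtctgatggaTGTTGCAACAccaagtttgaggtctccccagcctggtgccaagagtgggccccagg
BCL2, intronic region in p42 in DMSO alone, chr18:63143094-63143193: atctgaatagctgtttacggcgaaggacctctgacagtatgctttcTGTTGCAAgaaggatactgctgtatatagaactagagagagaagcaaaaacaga
BCL2A1, downstream of the gene, chr15:79954176-79954275: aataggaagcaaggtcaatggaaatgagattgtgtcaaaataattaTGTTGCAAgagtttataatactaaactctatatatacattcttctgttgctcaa
BBC3, intron, chr19:47227959-47228058: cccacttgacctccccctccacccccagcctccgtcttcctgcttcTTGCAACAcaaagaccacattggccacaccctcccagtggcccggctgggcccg
MCL1, at the start of ADAMTSL4, chr1:150552438-150552539: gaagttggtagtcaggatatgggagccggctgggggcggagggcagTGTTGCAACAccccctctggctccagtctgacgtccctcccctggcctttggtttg

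Other genes of the death pathway were taken from a list of 24, which holds further BCL2 family members, caspases, death receptors and their inhibitors, and stress genes such as DDIT3 (CHOP). Of these, 22 had a start-site region in all 6 lists. Their 411 regions were gained in 8.13% of cases in p42, 9.27% in p30 and 16.4% in EV, and lost in 21.7%, 18.5% and 12.8%. In p42 and p30 these losses lay between those of the 9 genes (15.8% and 10.9%) and those over all regions (27.5% and 23.6%). At their strongest start-site regions the median percentile difference between treatments was 0.509 (p42), 0.716 (p30) and 1.79 (EV). In these signed medians rises and falls cancel. In p42 1 of 23 was higher by 10 points or more and 1 lower, in p30 1 of 22 and 0, and in EV 3 of 23 and 1.

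At 2 other death receptors the 3 lines did not differ in 1 direction. At the strongest start-site region of TNFRSF10A, which encodes DR4 and neighbours TNFRSF10B, the percentile was 87.1 and 82.3 in p42, 83.4 and 84.2 in p30, and 86.8 and 86.5 in EV. FAS, the receptor of FAS ligand, was at 85.9 and 71.7 in p42, 67.8 and 80.3 in p30, and 68.2 and 82.8 in EV. FAS was thus lower after tunicamycin in p42 and higher in p30 and EV, so that the p42 lead seen in DMSO was reversed. A start-site region was gained or lost in at least 1 line at both of these receptors and at BOK, BIK, CASP8, CASP4, APAF1, XIAP, CFLAR and FADD. BOK, a BAX-like effector, had the weakest start site of these, at percentile 14.2 and 40.6 in p42, 13.9 and absent in p30, and 26 and 14.4 in EV.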

How the data were processed

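ATAC-seq libraries of KO-52 cells (2 per condition) were trimmed by the authors with Trim Galore 0.6.6, aligned to hg38 with Bowtie2 2.4.4, freed of duplicates with Picard and peak-called with MACS2 on pooled replicates. The methods give 1 account of both ChIP-seq and ATAC-seq, in which no shift for the Tn5 cut is named. A shift of this kind would move a summit by far less than the 100 bp searched for motifs. For each peak the authors deposited a score, the fold enrichment of the summit over background (a ratio), and −log10 p and −log10 q values. The lowest deposited −log10 q was 1.3.

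Peaks that overlapped or touched were merged over all 6 lists. A region took the strongest peak of each list. Percentiles were by −log10 q within a list, with ties at their mean. Tags at each summit and the depth of each list were recovered from the deposited fold and −log10 p, and 100% of summits gave whole tags within 0.001 in −log10 p. Tag intervals were exact Poisson, ratio intervals exact binomial on the pair of counts, and percent intervals Wilson, all at 95% and for counting only. Gene models were GENCODE release 44, and sequences were read from hg38. Scripts ran in Python 3.11.15 with numpy 2.4.6, scipy 1.17.1, pandas 2.3.3 and pysam 0.24.0, and were tested on simulated data.

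The genes and lists were chosen with earlier results of these data known. Named were all 9 genes, the strongest start-site region of each, regions gained or lost in all lines, the 3 strongest gains and losses per line, regions of both p42 lists alone or of all lists but those, and the 5 largest differences for p42 against p30 in DMSO and for tunicamycin. Of the 24 other genes those with a start-site region gained or lost, or differing between p42 and p30, were named. Markers were SPI1, MPO, CD33, CSF3R, ELANE and CD34 (myeloid), PAX5, CD3E and CD3D (lymphoid), GATA1, HBB and KLF1 (erythroid), and EPCAM, KRT8 and CDH1 (epithelial). Some genes of the marker and death gene lists are not reported here and were left out of the counts. Alternatives were a stricter threshold, equal list sizes, depth scaling, 50% overlap, other region sets, other flanks and ranks by fold. The per-library read counts were not used here.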

Additional observations from a re-analysis of the deposited data

How the results depend on the processing

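No paired analysis was possible because the 2 libraries of each condition were pooled before peak calling, so the replicate numbers of the labels do not appear in the lists and no library could be left out. A stricter threshold for the peaks counted (−log10 q of 5 or more) lowered every percent of regions in 1 list of a pair. Gains with tunicamycin then came to 2.27% in p42, 2.56% in p30 and 4.59% in EV, and losses to 3.79%, 3.42% and 0.917%. Over all regions these were 2.63%, 3.19% and 5.29% for gains and 8.48%, 6.61% and 3.83% for losses. Regions in p42 and not p30 came to 9.23% in DMSO and 5.43% after tunicamycin (14% and 11% of all regions). The reverse came to 2.31% and 1.55% (4.3% and 4.65% of all). Requiring peaks to cover 50% of the merged region raised losses to 30.1% in p42 and 20.4% in p30 (38.9% and 33.2% of all regions). It raised regions in p42 and not p30 to 32.2% in DMSO and 24.2% after tunicamycin (38.9% and 33.7% of all). The reverse rose to 13% and 18.8% (20% and 23.8% of all). This form of the overlap rule was chosen after seeing the data, since a peak within its region always meets the planned second clause.

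With lists cut to equal size, regions in p42 and not p30 came to 16.8% in DMSO (20.8% of all regions) and 9.74% after tunicamycin (19.2% of all). The reverse after tunicamycin came to 13% (20.4% of all). The median percentile differences came to −1.36 in p42 and −0.589 in p30 (−0.43 and −0.322 over all regions). After tunicamycin the larger share was then on the p30 side, as it was over all regions (20.4% against 19.2%). A threshold scaled to depth, regions merged from the pair of lists alone, gene bodies with no flank or 50 kb, and ranks by fold enrichment moved no percent or median by more than its counting interval, and no start-site percentile difference of 10 points or more changed sign. At 5 tags, the level of the weakest regions present in all lists and named here, the exact Poisson interval runs from 1.62 to 11.7.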
